A study of Mus musculus with 9 samples.

Results

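The genes of the Nogo receptor system, 7 of the 47593 gene symbols in the transcript tables, were described in ribosome-associated RNA of mouse prefrontal neurons: Rtn4, which encodes Nogo, its receptor Rtn4r, the receptor relatives Rtn4rl1 and Rtn4rl2, and the co-receptor Lingo1 with its relatives Lingo2 and Lingo3. They were found by gene symbol and comprised 29 of 115220 listed transcripts. RNA came from the medial prefrontal cortex (mPFC) of adult C57BL/6 mice by RiboTag pull-down, which uses an epitope on a ribosomal protein to collect ribosomes with their RNA, and was sequenced with a strand-specific kit for total RNA. Groups of 3 libraries each were compared: enforced wake with a GFP-Fxr1 fusion overexpressed in the mPFC (Fxr1 wake), enforced wake with GFP alone (wake), and sleep with GFP alone (sleep). Every group carried a GFP overexpression, and Fxr1 was given under enforced wake only. The source is labelled as neurons, but the driver of the ribosome tag, the length of enforced wake and the number of animals per library are not given in the sources used here. The labels do not state whether replicates were separate animals, and p-values therefore measure only the spread between these libraries, which may be technical.

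Nogo is a reticulon, a membrane protein of the endoplasmic reticulum, and its long form on oligodendrocyte and neuronal surfaces restrains axon growth and the remodelling of dendritic spines. Its receptor Rtn4r is a leucine-rich repeat protein anchored to the membrane by a lipid, and it reaches the cell interior through partners such as Lingo1 and the tumour necrosis factor receptor relatives Ngfr (p75) or Tnfrsf19 (Troy), upstream of the actin cytoskeleton. The myelin proteins Mag and Omg are further ligands of the same receptors.

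The genes were chosen with their values in these groups known. Levels, differences and counts of the 7 genes below are therefore descriptions, without a test, and nothing is read from how many of them passed the threshold. Levels are FPKM (fragments per kilobase of transcript, scaled to the mapped fragments) summed over the transcripts of a gene. Differences are on the log2(FPKM + 1) scale, which understates differences of genes with low FPKM, and come with a standard error (SE) from limma, fitted over all genes. In bulk RNA, fewer cells of a type and less RNA per cell cannot be told apart.

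The libraries had an estimated 2.99e7 to 3.73e7 fragments. Fxr1 itself had 91.1, 67.7 and 71.8 FPKM in Fxr1 wake, against 34.8, 33.9 and 31.1 FPKM in wake (difference 1.17, limma adjusted p = 0.0366) and 31.7, 34.8 and 31.0 FPKM in sleep (difference 1.21, limma adjusted p = 0.0019). Neuronal markers summed to 3085 to 3178 FPKM in Fxr1 wake, 2914 to 3007 FPKM in wake and 3172 to 3346 FPKM in sleep. The 8 oligodendrocyte markers summed to 134 to 152 FPKM in Fxr1 wake, 149 to 170 FPKM in wake and 103 to 161 FPKM in sleep. The 6 astrocyte markers summed to 92.7 to 109 FPKM in Fxr1 wake, 141 to 169 FPKM in wake and 121 to 138 FPKM in sleep, and the 5 microglial markers to 8.38 to 12.4 FPKM in Fxr1 wake, 13.3 to 16.4 FPKM in wake and 9.43 to 14.5 FPKM in sleep. None of these markers was at 0 in a whole group, so RNA of glia was present in all groups, and its part in the results was not tested. Libraries also differed in base composition: across 14589 genes, the rank correlation of a library's deviation from the mean of the 9 libraries with the GC content of the gene was -0.78, -0.37 and -0.25 in Fxr1 wake, 0.62, 0.66 and 0.69 in wake, and 0.24, -0.36 and 0.17 in sleep. Fxr1 wake library 1 and sleep library 2 stood apart from their groups, and values without 1 of them are given beside the results that moved most.

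The starts of the genes differ in composition as do the transcripts. Of the 7 genes, 6 had at least 1 RefSeq promoter window (GRCm38.p6), and the 250 bases before 5 annotated starts are printed 5′ to 3′ because they show how the starts of these genes differ in base composition. Capitals mark the GC box, GGGCGG or its reverse complement CCGCCC, overlapping matches included, which stands in 32.7% of the 32817 promoter windows of this length.
Lingo1, short transcript (chr9:56635649-56635898, minus strand): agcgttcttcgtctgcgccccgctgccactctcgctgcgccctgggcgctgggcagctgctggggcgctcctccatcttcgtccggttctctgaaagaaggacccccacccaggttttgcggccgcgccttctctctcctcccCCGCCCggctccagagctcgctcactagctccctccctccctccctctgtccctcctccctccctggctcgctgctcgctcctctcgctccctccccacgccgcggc
Rtn4r (chr16:18127392-18127641, plus strand): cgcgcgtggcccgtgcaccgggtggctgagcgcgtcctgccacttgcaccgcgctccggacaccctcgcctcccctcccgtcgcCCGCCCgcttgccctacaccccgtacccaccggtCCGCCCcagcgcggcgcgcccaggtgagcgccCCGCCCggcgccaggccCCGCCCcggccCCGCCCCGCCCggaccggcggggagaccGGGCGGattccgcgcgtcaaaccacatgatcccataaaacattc
Rtn4, upstream start (chr11:29692648-29692897, plus strand): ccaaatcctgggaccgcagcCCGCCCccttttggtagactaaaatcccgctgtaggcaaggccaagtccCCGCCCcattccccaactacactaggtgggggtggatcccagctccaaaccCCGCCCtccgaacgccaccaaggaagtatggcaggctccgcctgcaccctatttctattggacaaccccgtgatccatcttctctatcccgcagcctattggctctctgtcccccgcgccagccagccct
Rtn4, downstream start (chr11:29718313-29718562, plus strand): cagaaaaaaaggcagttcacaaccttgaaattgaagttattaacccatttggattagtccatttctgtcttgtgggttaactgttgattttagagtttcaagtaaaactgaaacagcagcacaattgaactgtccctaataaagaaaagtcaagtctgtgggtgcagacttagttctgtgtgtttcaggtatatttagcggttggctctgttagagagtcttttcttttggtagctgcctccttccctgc
Lingo2, start of transcript Lingo2-210 (chr4:35845205-35845454, minus strand): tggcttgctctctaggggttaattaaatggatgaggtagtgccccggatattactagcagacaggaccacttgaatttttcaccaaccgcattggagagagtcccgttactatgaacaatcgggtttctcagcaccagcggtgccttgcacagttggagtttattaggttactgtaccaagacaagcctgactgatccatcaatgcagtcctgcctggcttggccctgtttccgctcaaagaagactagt
The Rtn4r window held 7 GC boxes, the upstream Rtn4 window 3 and the Lingo1 window 1, while the downstream Rtn4 and the Lingo2 windows held none. GC content was 77.2% before Rtn4r, 70.4% before the Lingo1 transcript, 61.2% and 39.2% before the upstream and downstream Rtn4 starts, and 48.4% before Lingo2. The 6 genes had 11 windows in all. Among those not printed, another Rtn4 window had 76.8% GC, another Lingo2 window 25.2% and another Lingo1 window 72.8%. The Lingo3 windows had 66.8% and 74.0%, and the Rtn4rl2 window 73.6%. A cAMP response element, TGACGTCA, which reads the same on both strands and stands in 1.55% of windows, was in no window of the 6 genes. A match is a description of letters and not of a binding site.

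Nogo RNA was the most abundant of the 7, with the receptor and Lingo RNAs far below it. Averaged over the 9 libraries, the level was 192 FPKM for Rtn4, 41.8 for Lingo1, 19.5 for Rtn4rl1, 14.9 for Rtn4r, 10.2 for Lingo2, 6.05 for Rtn4rl2 and 5.99 for Lingo3. Rtn4 lay above the other 6 genes in every library. Next to it Lingo1 was separate from Rtn4rl1 in wake and in sleep, but their ranges overlapped in Fxr1 wake. Rtn4rl1 and Rtn4r overlapped in all 3 groups, as did Rtn4rl2 and Lingo3, so the order of these neighbours is not fixed beyond their spread. In Fxr1 wake the overlap of Rtn4rl1 (lowest 12.66 FPKM) and Rtn4r (highest 12.72 FPKM) was narrow.

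**Figure D1:**
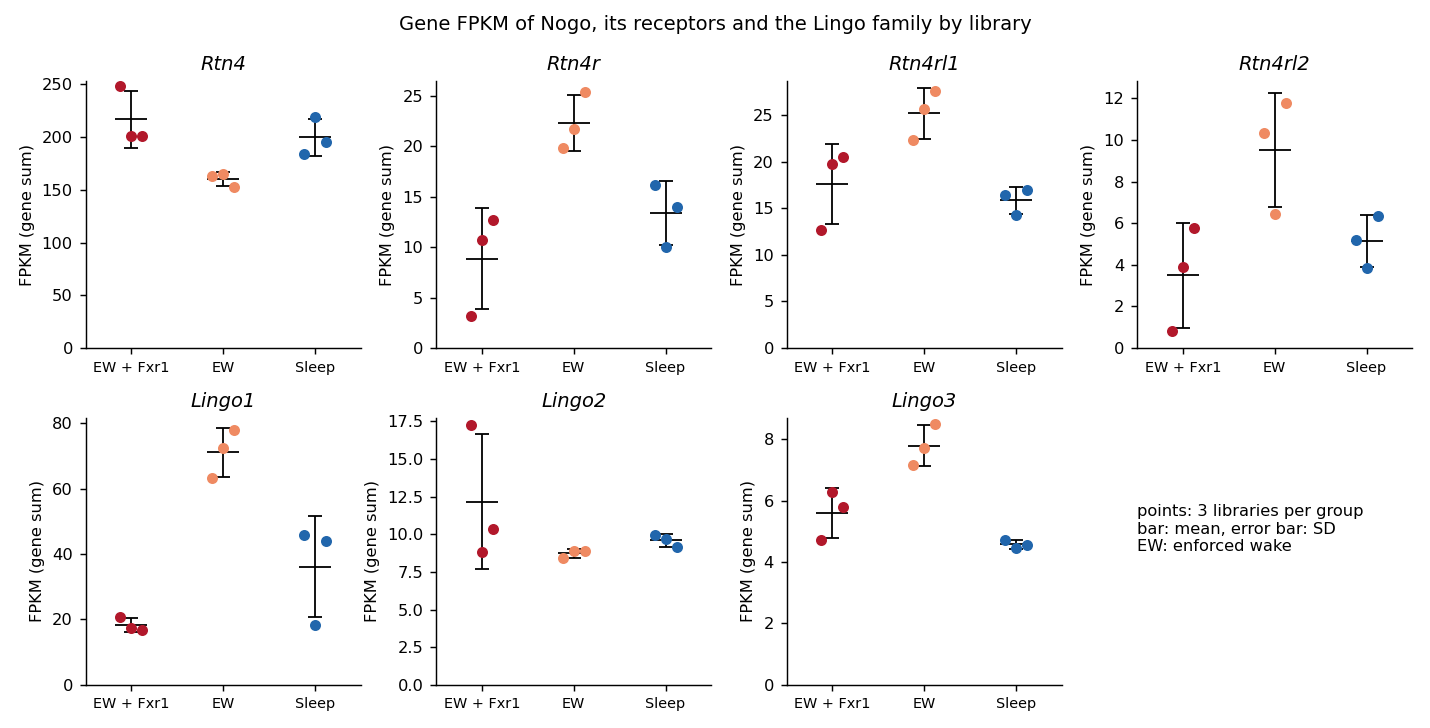
Gene FPKM (vertical axes, linear from 0) of the 7 genes in Fxr1 wake (EW + Fxr1), wake (EW) and sleep, with 1 point per library, the mean and the SD (n = 3). Lingo1 was at 16.8 to 20.6 FPKM in Fxr1 wake and 63.1 to 77.9 FPKM in wake, and sleep library 2 lay at 18.3 FPKM.

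Rtn4 (ENSMUSG00000020458, chr11:29692947-29744331, plus strand, GRCm38) was lowest in wake. It had 248, 202 and 201 FPKM in Fxr1 wake, 163, 165 and 153 FPKM in wake, and 184, 219 and 196 FPKM in sleep. All wake libraries lay below all libraries of both other groups, which overlapped each other. The difference of wake from sleep was -0.31 (SE 0.08), or -0.24 without sleep library 2. Fxr1 wake differed from wake by 0.43 (SE 0.11), or 0.33 without Fxr1 wake library 1, and from sleep by 0.12 (SE 0.10), or 0.01 without that library.

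Its 10 listed transcripts were dominated by a long and a short form. Rtn4-205 (ENSMUST00000102843, 9 exons, 3486 coding bases), the long form Nogo-A, had 143, 108 and 110 FPKM in Fxr1 wake, 83.1, 83.9 and 81.6 FPKM in wake, and 92.9, 104 and 93.5 FPKM in sleep. Rtn4-201 (ENSMUST00000060992, 7 exons, 597 coding bases), the short form Nogo-C, begins at the downstream start printed above and had 98.9, 87.9 and 84.8 FPKM in Fxr1 wake, 71.9, 73.4 and 64.5 FPKM in wake, and 84.3, 99.5 and 95.4 FPKM in sleep. Both forms were lowest in wake with no overlap with the other groups, and they held 47.3 to 57.5% and 39.8 to 48.7% of Rtn4 FPKM in single libraries. The long form was higher in every Fxr1 wake library than in every sleep library (difference 0.30, SE 0.11), while the short form overlapped between these groups (difference -0.04, SE 0.09). Without Fxr1 wake library 1, which had the highest level of the long form, the difference of the long form from sleep was 0.18 (SE 0.06).

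Among the minor Rtn4 transcripts, 2 forms singled out after their values were seen differed from these. Rtn4-204 (ENSMUST00000102842, 8 exons, 1125 coding bases), which has the upstream start of the long form, had 0.124, 0.149 and 0 FPKM in Fxr1 wake, 2.57, 2.29 and 2.51 FPKM in wake, and 0.184, 0 and 1.23 FPKM in sleep. It was higher in every wake library than in any other library, the reverse of the main forms, at no more than 1.64% of the gene. Rtn4-203 (ENSMUST00000102841, 9 exons, 3138 coding bases) was listed at 10.3 FPKM in sleep library 2, at 0.0113 FPKM in sleep library 1 and at 0 in the other 7 libraries. Transcripts of a gene share exons, so an estimate can pass from one to another.

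Rtn4r (ENSMUSG00000043811, chr16:18127642-18152408, plus strand), the Nogo receptor, was highest in wake. It had 3.18, 10.7 and 12.7 FPKM in Fxr1 wake, 19.8, 21.8 and 25.4 FPKM in wake, and 16.2, 10.02 and 14.0 FPKM in sleep. The wake libraries lay above all others, Fxr1 wake and sleep overlapped, and Fxr1 wake library 1 was the lowest. Wake differed from sleep by 0.71 (SE 0.17), and Fxr1 wake from wake by -1.40 (SE 0.43), or -0.87 without Fxr1 wake library 1. Against sleep, Fxr1 wake differed by -0.69 (SE 0.40) with that library and by -0.16 without it.

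Rtn4rl1 (ENSMUSG00000045287, chr11:75193783-75267769, plus strand) encodes a receptor relative also called NgR3. It had 12.7, 19.7 and 20.5 FPKM in Fxr1 wake, 22.3, 25.7 and 27.6 FPKM in wake, and 16.4, 14.2 and 17.0 FPKM in sleep. Wake was above both other groups without overlap, and Fxr1 wake library 1 lay below all sleep libraries while libraries 2 and 3 lay above them. The difference was 0.63 (SE 0.10) for wake from sleep, -0.52 (SE 0.19) for Fxr1 wake from wake, and 0.12 (SE 0.17) for Fxr1 wake from sleep. Without Fxr1 wake library 1, Fxr1 wake differed from wake by -0.31 and from sleep by 0.33.

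Rtn4rl2 (ENSMUSG00000050896, chr2:84871924-84886710, minus strand), the receptor relative NgR2 that binds the myelin protein Mag, was the least well measured of the genes. It had 0.807, 3.88 and 5.79 FPKM in Fxr1 wake, 10.3, 6.47 and 11.8 FPKM in wake, and 5.20, 3.87 and 6.35 FPKM in sleep. An estimated 35 fragments lay behind the lowest library and 305 behind the highest. Wake lay above both groups, narrowly in wake library 2 (6.47 FPKM, against 6.35 FPKM in sleep library 3), and the other groups overlapped.
Wake differed from sleep by 0.76 (SE 0.23), Fxr1 wake from wake by -1.39 (SE 0.49), and Fxr1 wake from sleep by -0.63 (SE 0.45). Without Fxr1 wake library 1, Fxr1 wake differed from wake by -0.83 and from sleep by -0.07. Most of the gene's FPKM came on average from Rtn4rl2-202 (ENSMUST00000151759, 2 exons), which has no coding sequence: its share averaged 53.3%. It had 0, 1.98 and 3.24 FPKM in Fxr1 wake, 6.50, 3.39 and 6.78 FPKM in wake, and 3.14, 2.55 and 4.66 FPKM in sleep, and overlapped between wake and sleep. The coding transcript Rtn4rl2-203 (ENSMUST00000151799, 3 exons, 1278 coding bases) had 0.807, 1.53 and 1.57 FPKM in Fxr1 wake, 3.11, 2.04 and 3.18 FPKM in wake, and 1.16, 1.32 and 0.700 FPKM in sleep. The wake libraries of this coding transcript lay above all others. The coding transcript Rtn4rl2-201 (ENSMUST00000054514) was at 0 to 1.79 FPKM and overlapped between all groups.

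Lingo1 (ENSMUSG00000049556, chr9:56618475-56796468, minus strand), the co-receptor, had the largest difference of the 7 genes between Fxr1 wake and wake. It had 20.6, 17.5 and 16.8 FPKM in Fxr1 wake, 63.1, 72.3 and 77.9 FPKM in wake, and 45.9, 18.3 and 44.0 FPKM in sleep. The wake libraries lay above all others. Sleep library 2 lay within the range of Fxr1 wake, so these groups overlapped. Fxr1 wake differed from wake by -1.90 (SE 0.12), and by -1.99 without Fxr1 wake library 1. Wake differed from sleep by 1.06 (SE 0.33) with sleep library 2 and by 0.65 without it, and Fxr1 wake differed from sleep by -0.84 (SE 0.30) with it and by -1.26 without it.

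The Lingo1 transcript labelled short above, Lingo1-203, carried the widest contrast. It has 2782 bases, against 3295 for Lingo1-201 and 2287 for Lingo1-202. Lingo1-201 (ENSMUST00000053568, chr9:56618475-56685253, 4 exons, 1842 coding bases), the main form, had 20.6, 15.0 and 14.6 FPKM in Fxr1 wake, 45.5, 56.5 and 56.1 FPKM in wake, and 35.7, 14.6 and 37.1 FPKM in sleep. Lingo1-203 (ENSMUST00000114256, chr9:56619088-56635628, 2 exons, 1860 coding bases), which begins 20 bases from the RefSeq start whose upstream window is printed above, was listed at 0, 0.192 and 0.279 FPKM in Fxr1 wake, 17.2, 15.4 and 20.6 FPKM in wake, and 9.08, 0.368 and 6.03 FPKM in sleep. Every Fxr1 wake library was thus below every sleep and wake library for Lingo1-203, and sleep library 2 was closest to them. It made up 0, 1.1 and 1.66% of Lingo1 in Fxr1 wake, 27.3, 21.4 and 26.4% in wake, and 19.8, 2.01 and 13.7% in sleep. At most an estimated 27 fragments stood behind Lingo1-203 in a Fxr1 wake library, against 1318 to 1721 in the wake libraries. The GC content of Lingo1-203 was 62.1%, against 57.7% for Lingo1-201. The minor form Lingo1-202 (ENSMUST00000114247) had 0.00542, 2.33 and 1.92 FPKM in Fxr1 wake, 0.437, 0.398 and 1.19 FPKM in wake, and 1.12, 3.39 and 0.860 FPKM in sleep, with overlap between all groups.

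**Figure D2:**
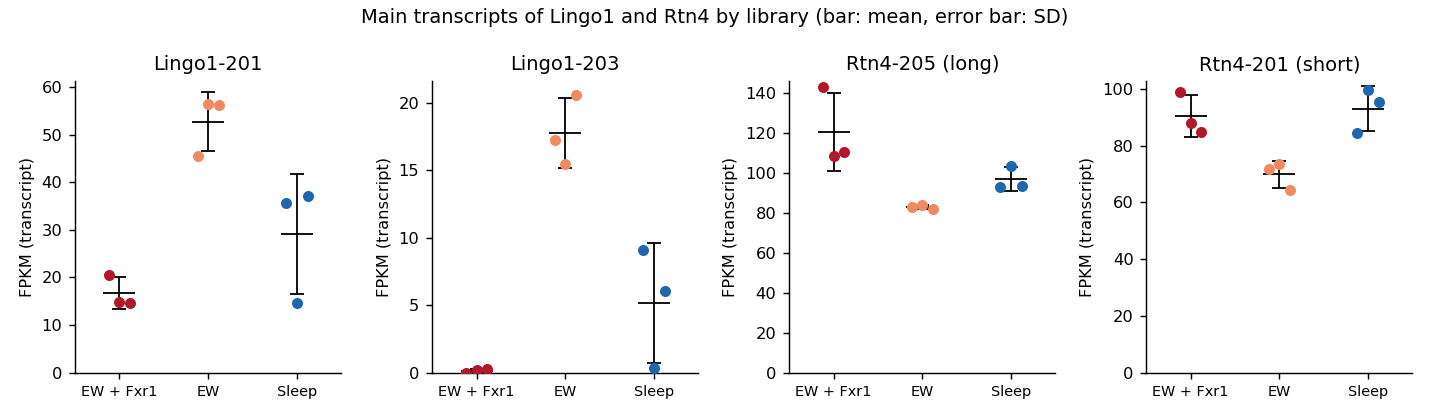
FPKM (vertical axes, linear from 0) of the main transcripts of Lingo1 and Rtn4 in Fxr1 wake (EW + Fxr1), wake (EW) and sleep, with 1 point per library, the mean and the SD (n = 3). Lingo1-203 was at 0 to 0.279 FPKM in Fxr1 wake, 15.4 to 20.6 FPKM in wake and 0.368 FPKM in sleep library 2, while both Rtn4 forms were lowest in wake.

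Lingo2 (ENSMUSG00000045083, chr4:35706647-36951747, minus strand), a relative of Lingo1, had 17.3, 8.82 and 10.4 FPKM in Fxr1 wake, 8.41, 8.85 and 8.90 FPKM in wake, and 9.94, 9.70 and 9.14 FPKM in sleep. Wake was below sleep in every library, by -0.12 (SE 0.06). Fxr1 wake overlapped both other groups, and its library 1 lay far above libraries 2 and 3. The difference of Fxr1 wake was 0.38 (SE 0.23) from wake and 0.26 (SE 0.20) from sleep, and without Fxr1 wake library 1 it was 0.12 from wake and -0.002 from sleep. Most of that library's excess lay in Lingo2-203 (ENSMUST00000108122, 8 exons), a coding transcript at 9.05, 2.88 and 2.88 FPKM in Fxr1 wake, 2.38, 2.65 and 2.36 FPKM in wake, and 2.58, 3.33 and 2.40 FPKM in sleep. The coding transcript Lingo2-202 (ENSMUST00000098151, 3 exons) had 3.97, 2.37 and 2.38 FPKM in Fxr1 wake, 2.03, 1.70 and 2.23 FPKM in wake, and 2.67, 2.90 and 2.29 FPKM in sleep, with wake below both other groups. The remaining main forms Lingo2-210, Lingo2-205 and Lingo2-209 (ENSMUST00000164772, ENSMUST00000124999 and ENSMUST00000145615), of which the last pair has no coding sequence, were at 0.512 to 1.54 FPKM, and of these only Lingo2-210 was without overlap between wake and sleep (lower in wake). Lingo2-210, whose start is the one printed above, held 11.4% of the gene on average.

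Lingo3 (ENSMUSG00000051067, chr10:80832801-80844039, minus strand), a further relative, had 4.71, 6.29 and 5.80 FPKM in Fxr1 wake, 7.17, 7.71 and 8.50 FPKM in wake, and 4.73, 4.45 and 4.55 FPKM in sleep. Wake lay above both other groups without overlap, and 2 of 3 Fxr1 wake libraries lay above all sleep libraries. Wake differed from sleep by 0.65 (SE 0.08). Fxr1 wake differed from wake by -0.42 (SE 0.12) and from sleep by 0.24 (SE 0.11), or by -0.32 and 0.34 without Fxr1 wake library 1.

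Set side by side, 5 genes (Lingo1, Lingo3, Rtn4r, Rtn4rl1 and Rtn4rl2) were higher in wake than in sleep in every library and Lingo2 and Rtn4 were lower, while 25.8% and 23.8% of all 14673 tested genes were without overlap in these directions. In the limma fit 4 of the 7 genes passed as higher in wake (Lingo3, Rtn4r, Rtn4rl1 and Rtn4rl2) and 1 as lower (Rtn4), against 15.7% and 12.7% of all genes (28.3% in either direction). The count of 5 became 2 without wake library 3 or sleep library 3, and 3 without wake library 1 or 2. Rtn4rl2 passed at limma adjusted p = 0.0495, and not with a pseudocount of 0.1. With 1 library left out, Rtn4rl2 passed only without wake library 2. The call of Rtn4 was lost without sleep library 3 or any 1 wake library. Without sleep library 1 the count was 5, with Lingo1 past the threshold and Rtn4rl2 not. Without sleep library 2 it was 5 again, with Lingo1 past the threshold and Rtn4rl2 not, at differences of 0.53 for Rtn4r, 0.56 for Rtn4rl1, 0.60 for Rtn4rl2, 0.64 for Lingo3 and -0.12 for Lingo2. Over all genes, calls fell from 4156 to 1866 without wake library 3 and to 2828 without sleep library 3. They fell to 2570 and 1822 without wake libraries 1 and 2, and to 3157 without sleep library 2. Between Fxr1 wake and wake, 5 genes were lower in every Fxr1 wake library and Rtn4 was higher, against 32.3% and 20.3% of 14563 genes, and Lingo1 alone passed, as lower, against 0.33% of genes (0.412% in either direction). Its call was lost without wake library 2, wake library 3 or Fxr1 wake library 2, where 2, 2 and 4 genes passed in all. Without Fxr1 wake library 1, Lingo1, Rtn4 and Rtn4r passed while 3316 genes passed in all, against 60 with it. Between Fxr1 wake and sleep all 7 genes overlapped, while 11.5% of 14617 genes were higher and 21.2% lower without overlap. There 0 passed in limma, against 7.79% of genes, and 1 was at an unadjusted p under 0.05 (Lingo1), against 29.2%. Without sleep library 2 Lingo1 passed there, where 347 genes passed in all. Without Fxr1 wake library 1 Lingo3 passed, where 1440 genes passed in all. The comparisons share libraries, so their values are not independent of each other. The median difference of the 7 genes was 0.65 for wake from sleep, -0.52 for Fxr1 wake from wake and 0.12 for Fxr1 wake from sleep, beside medians of 0.004, -0.06 and -0.09 over all tested genes.

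Among single transcripts, Lingo3-201 and Rtn4rl1-201 passed as higher in wake than in sleep, against 2.05% of 29116 transcripts. Leaving out sleep library 3 left 1 of these calls, and leaving out any other library left 0. Counts over all transcripts with 1 library left out are not given here, so these losses cannot be set against those of all transcripts. Lingo1-201, Lingo1-203 and Rtn4-204 passed as lower in Fxr1 wake than in wake, against 0.61% of 28837. No transcript of the 7 genes passed in limma between Fxr1 wake and sleep (0.818% of 28989 did), and Lingo1-203 passed there without sleep library 2. In the authors' deposited table, Lingo1-203 had a fold of 0.0701 and a q-value of 0.229 and Lingo1-201 a fold of 0.297 and a q-value of 0.302 for Fxr1 wake over wake. For sleep over wake, the direction used in the authors' deposited table, Lingo3-201 had a fold of 0.646 with a q-value of 0.445. None of the transcripts of the 7 genes had a q-value under 0.05 in the authors' deposited tables, where the lowest were 0.194 and 0.445.

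The direction of the 7 genes ran parallel to their base composition. Lingo2 and Rtn4, lower in wake than in sleep, had a GC content of 38.8% and 46.0% in their longest transcript, and the 5 genes higher in wake had 56.9 to 68.5%, above 86.7 to 99.9% of tested genes. The longest Lingo2 transcript is non-coding, and its main coding transcripts had 45.1 to 46.8%. The GC trend of the libraries given above was positive in all wake libraries and negative in all Fxr1 wake libraries, so it moved with the groups and with these genes, and its part in the result was not tested. Differences were also computed after the trend of each library with GC content and length was removed, which takes away any real difference that follows GC content too.

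**Figure D3:**
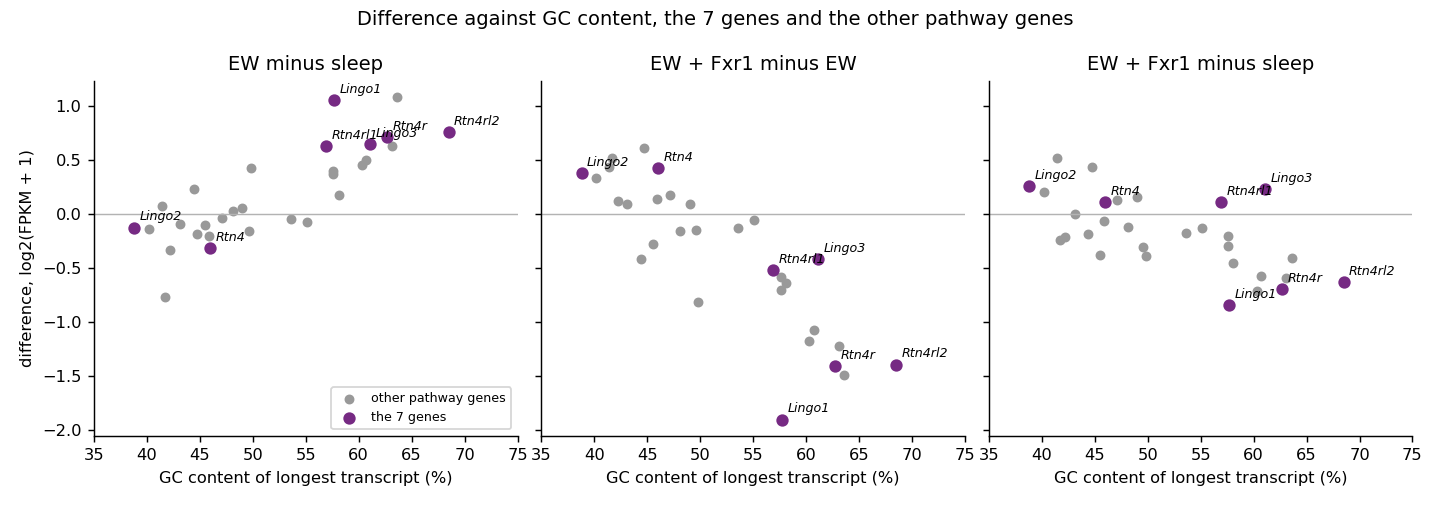
Difference on the log2(FPKM + 1) scale (vertical axis) against the GC content of the longest transcript in percent (horizontal axis) for the 7 genes and the 23 tested pathway genes, 1 panel per comparison. Rtn4rl2, at 68.5% GC, differed by 0.76 between wake and sleep and by -1.39 between Fxr1 wake and wake, and Lingo1 lay below genes of like GC content between Fxr1 wake and wake.

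With the trend removed, the difference of wake from sleep was 0.74 for Lingo1, 0.34 for Rtn4rl1, 0.28 for Rtn4r, 0.22 for Lingo3, 0.17 for Rtn4rl2, 0.08 for Lingo2 and -0.24 for Rtn4. Rtn4rl1 and Rtn4 passed in this fit, in which 23.6% of all genes did, and the difference of Lingo2 changed sign. For Lingo2 the trend was removed at the GC content of its non-coding longest transcript (38.8%). Its main coding transcripts had 45.1 to 46.8%, and the part of this choice in the sign of Lingo2 was not tested. Without sleep library 2, the trend-removed difference of Lingo1 was 0.41, that of Rtn4r 0.20 and that of Rtn4rl1 0.34. For Fxr1 wake from wake, values with the trend removed were -1.25 for Lingo1, -0.52 for Rtn4r, -0.31 for Rtn4rl2, 0.04 for Lingo2, 0.09 for Rtn4rl1, 0.33 for Rtn4 and 0.42 for Lingo3. Lingo3 and Rtn4rl1 changed sign, and 0 of the 7 genes passed in limma, against 0.309% of all genes, with 3 at an unadjusted p under 0.05, against 22.1%. Without Fxr1 wake library 1, the trend-removed differences were -1.56 for Lingo1, -0.26 for Rtn4r, -0.04 for Rtn4rl2, 0.25 for Lingo3 and -0.10 for Lingo2, whose sign changed. For Fxr1 wake from sleep, Lingo3 (0.64) and Rtn4rl1 (0.43) passed as higher, where 12.8% of all genes passed in either direction, and the other 5 genes lay between -0.50 and 0.12. Without Fxr1 wake library 1, this trend-removed difference was 0.47 for Lingo3, 0.43 for Rtn4rl1 and -0.81 for Lingo1. On this scale the level of Lingo1 was 5.21, 4.36 and 4.22 in Fxr1 wake, 5.72, 5.90 and 5.91 in wake, and 5.45, 4.42 and 5.42 in sleep. Wake was thus still above both groups in every library for Lingo1, and sleep library 2 was still within the range of Fxr1 wake.

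**Figure D4:**
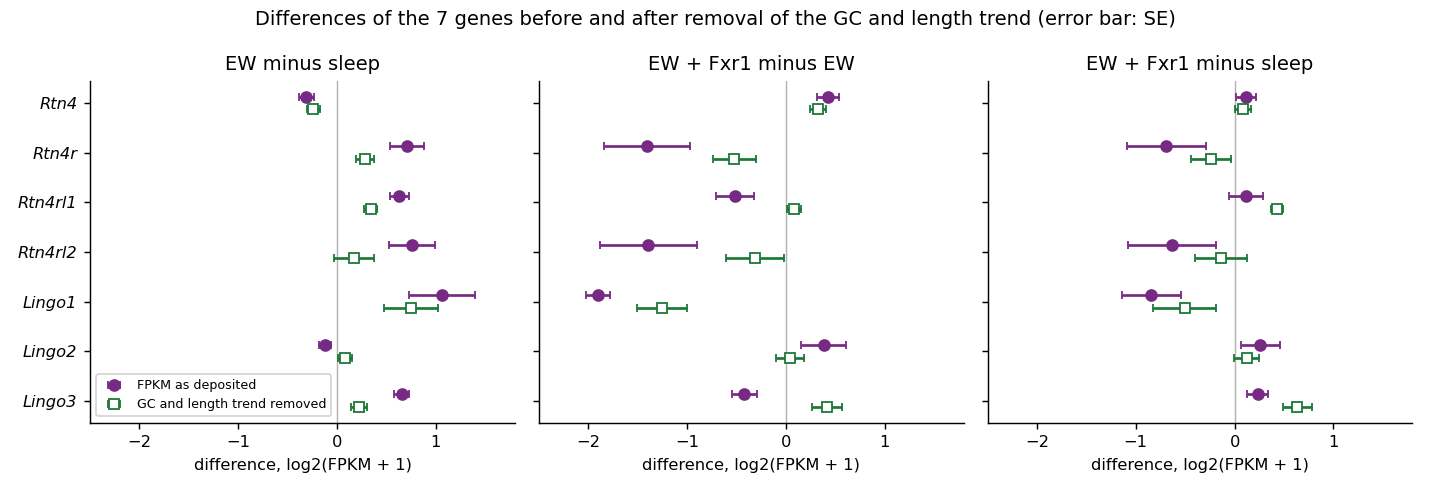
Differences on the log2(FPKM + 1) scale (horizontal axes, points with SE) of the 7 genes in the 3 comparisons, from FPKM as deposited (filled) and after removal of the GC and length trend (open). Lingo1 between Fxr1 wake and wake moved to -1.25 with the trend removed, against -1.90 as deposited, and Lingo3 changed sign.

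Of the ligands beside Nogo, Omg, a myelin glycoprotein also made by neurons, was lower in wake. It had 74.6, 61.8 and 63.3 FPKM in Fxr1 wake, 48.2, 46.9 and 42.9 FPKM in wake, and 76.8, 83.2 and 76.2 FPKM in sleep. Omg fell in wake relative to sleep (difference -0.76, SE 0.07, limma adjusted p = 0.00165) and also with the trend removed (-0.54). Fxr1 wake differed from sleep by -0.24 for Omg, which did not pass, and by -0.33 without Fxr1 wake library 1, which did (limma adjusted p = 0.029). With the trend removed and all libraries in, this difference was -0.30 and passed (limma adjusted p = 0.00659). Every Fxr1 wake library lay below every sleep library for Omg. Of the 8 oligodendrocyte markers, 1 was higher and 1 lower in wake than in sleep past the threshold, beside 15.7% and 12.7% of all genes. The part of oligodendrocytes in the result for Omg was not tested. Mag, a glycoprotein of the inner myelin membrane, had 3.26, 3.24 and 3.82 FPKM in Fxr1 wake, 5.51, 4.87 and 6.59 FPKM in wake, and 3.45, 5.25 and 3.76 FPKM in sleep, and did not pass in any of the 3 comparisons with all libraries in. Without sleep library 2 it passed as higher in wake than in sleep (difference 0.53, limma adjusted p = 0.0355, against 0.38 and limma adjusted p = 0.109 with it), and without Fxr1 wake library 1 as lower in Fxr1 wake than in wake (-0.55, limma adjusted p = 0.036). Its difference between Fxr1 wake and wake was -0.58 and was 0.06 with the trend removed.

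The 2 alternative signalling partners of Lingo1 and Rtn4r differed in level. Ngfr was at 0.0514 to 0.0699 FPKM in Fxr1 wake, 0.0722 to 0.112 FPKM in wake and 0.0814 to 0.113 FPKM in sleep, under the mean of 0.5 FPKM required for a test. Tnfrsf19 had 12.1, 11.6 and 10.3 FPKM in Fxr1 wake, 11.6, 13.1 and 13.4 FPKM in wake, and 14.0, 14.2 and 14.6 FPKM in sleep, and did not pass in any comparison with all libraries in. Tnfrsf19 passed as lower in Fxr1 wake than in sleep without Fxr1 wake library 1 (difference -0.35, limma adjusted p = 0.04, against -0.31 with it). Every Ngfr value thus lay far below every Tnfrsf19 value on the FPKM scale.

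Of 27 pathway genes, a list chosen from what is known of the pathway and with earlier results of these data in view, 23 reached the level for a test. Ngfr, Pirb, S1pr2 and Lingo4 did not. Wake against sleep, 5 rose: Adgrb1, an adhesion receptor that binds the Nogo receptor family (difference 1.09, SE 0.14, limma adjusted p = 0.00438), its relative Adgrb2 (0.64, limma adjusted p = 0.0227), the cytoskeletal regulator Arhgdia (0.50, limma adjusted p = 0.026), the cofilin kinase Limk1 (0.41, limma adjusted p = 0.039) and the reticulon Rtn2 (0.43, limma adjusted p = 0.0176). Omg and the reticulon Rtn3 (-0.20, limma adjusted p = 0.0419) fell. The 7 are 5 higher and 2 lower of 23, beside 15.7% higher and 12.7% lower over all genes (28.3% in all), and the median of the 23 was 0.03. The Rtn3 call was lost when any 1 of the 6 libraries was left out (limma adjusted p of 0.0662 to 0.119). The calls of Arhgdia and Limk1 were lost without any 1 wake library, that of Limk1 also without sleep library 3, and those of Adgrb2 and Rtn2 without wake library 2 or 3. Adgrb1 had 5.03, 10.9 and 12.1 FPKM in Fxr1 wake, 27.0, 23.2 and 29.4 FPKM in wake, and 13.7, 9.79 and 12.6 FPKM in sleep, with wake above all other libraries. With the trend removed, Adgrb1 (0.52), Rtn2 (0.41) and Omg remained past the threshold, while Adgrb2, Arhgdia, Limk1 and Rtn3 did not, and Rock2, Rtn1 and Cfl1 passed. The count of 7 was 2 without wake library 2 or 3, which left Adgrb1 and Omg, and 4 without wake library 1. Over all genes, calls fell from 4156 to 1822, 1866 and 2570 without wake libraries 2, 3 and 1. Without sleep library 2 the difference was 0.96 for Adgrb1, 0.50 for Adgrb2, 0.37 for Arhgdia, 0.29 for Limk1, whose call was lost, and -0.72 for Omg.

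Fxr1 wake against wake, 0 of the 23 passed in limma, and 12 were at an unadjusted p under 0.05, as were 38.3% of all genes. The median was -0.15. Without Fxr1 wake library 1, 10 passed, as did 22.8% of all genes, with Omg and Rock2 higher and Adgrb1, Adgrb2, Arhgdia, Egfr, Limk1, Mag, Ptprs and Rtn2 lower. Fxr1 wake against sleep, 1 of the 23 passed, as did 7.79% of all genes. The gene was Rock2, a kinase that acts on the actin cytoskeleton, which was higher. It had 116, 91.9 and 94.0 FPKM in Fxr1 wake, 73.5, 74.6 and 72.0 FPKM in wake, and 66.9, 71.6 and 69.9 FPKM in sleep. Every Fxr1 wake library was above every sleep library for Rock2 (difference 0.52, SE 0.09, limma adjusted p = 0.019), and the difference was 0.36 with the trend removed and 0.42 without Fxr1 wake library 1. The call was lost without any 1 of the 3 sleep libraries, where 248, 347 and 250 genes passed in all, against 1138 with them. With the trend removed, Omg (-0.30) and the pathway gene Kalrn (-0.49, limma adjusted p = 0.0345) also passed, as lower. In that fit 12.8% of all genes passed.

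The genes whose levels ran most like each of the 7 over the 9 libraries were taken from 8746 genes with a mean of at least 5 FPKM, by Pearson's r of log2(FPKM + 1). They were Tmem191c, Rab11fip5 and Fam131a for Lingo1 (r of 0.977, 0.974 and 0.964), Clk4, Csmd3 and Acsl3 for Lingo2 (0.989, 0.981 and 0.967), and Fmnl1, Bcor and Smad3 for Lingo3 (0.988, 0.987 and 0.986). For Rtn4 they were Tmem30a, Zdhhc17 and Eif5a2 (0.996, 0.996 and 0.995), for Rtn4r Rpusd1, Tecpr1 and Ptprn (0.998, 0.998 and 0.997), for Rtn4rl1 Smg5, Rims4 and Fstl4 (0.990, 0.990 and 0.989), and for Rtn4rl2 Os9, Fastk and Yipf3 (0.992, 0.989 and 0.984). The genes like Rtn4 had a GC content of 38.8 to 41.8%, those like Lingo2 38.8 to 43.2% and those like Rtn4r 58.2 to 59.5%. It was 56.5 to 60.5% for those like Lingo1 and 53.0 to 57.8% for those like Lingo3. For those like Rtn4rl1 it was 54.0 to 56.5%, and for those like Rtn4rl2 56.4 to 57.4%. Lingo2 stood far highest in Fxr1 wake library 1, which weighs on its values of r. By rank (Spearman's rho), Clk4, Csmd3 and Acsl3 were at 0.883, 0.833 and 0.7 for Lingo2. The genes named for the other members were at 0.867 to 1.0. All values share the same 9 libraries with their GC trend, so these are descriptions of likeness.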

How the data were processed

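The authors deposited 2 tables of 115220 transcripts, with FPKM per library and, per the file headers, a fold (ratio), a p-value and a q-value per transcript. Per the submitters' processing notes, HISAT2 2.1.0, SAMtools 1.9, StringTie 1.3.4d and GRCm38 were used; no source used here names the tool behind the folds. The wake columns were identical in both tables, so 9 libraries could be set side by side. FPKM are relative to each library's total and hold no counts, so fragments were estimated from the steps of low values.

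FPKM were summed by gene symbol and fitted on the log2(FPKM + 1) scale (limma 3.58.1, R 4.3.3; intensity trend, 2-sided, Benjamini-Hochberg over all features with a mean of at least 0.5 FPKM, threshold 0.05), with Python 3.11.15 for tables. Wake against sleep and Fxr1 wake against wake used their own 6 libraries, Fxr1 wake against sleep all 9. An exact permutation test of 3 against 3 libraries cannot go below p = 0.1. GC content and length of the longest transcript, known for 99.8% of tested genes, were removed as spline trends (5 degrees of freedom each) in an alternative. The limma fit was tested on simulated data with independent noise and without a GC trend. All 7 genes were named, their transcripts with at least 10% of the gene, pathway genes passing in any comparison with Mag, Omg, Ngfr and Tnfrsf19, and the 3 genes most like each. The 7 genes, the pathway list and the 30 markers were chosen with earlier results of these data known. Positions are GENCODE, promoter sequences RefSeq GRCm38.p6. Alternatives were another pseudocount (0.1), no filter, median-ratio scaling, other libraries in the fit, a replicate block, the removed trend, and each library left out. Trend-removed differences without 1 library were added after seeing the data, as differences of group means.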

Additional observations from a re-analysis of the deposited data

How the results depend on the processing

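Counts of genes passing moved with the processing, and the cause was not tested. Wake against sleep, the 5 of 7 genes were 2 with no filter on low values, 1 with 9 libraries in the fit, 2 with the GC and length trend removed and 2 to 5 with 1 library left out; the 7 pathway genes were 3 with no filter, 2 with 9 libraries and 2 to 7 with 1 library left out; the 2 transcripts were 0 with no filter, 1 with 9 libraries and 0 to 1 with 1 library left out. Fxr1 wake against wake, the single gene was 4 with 9 libraries, 0 with the trend removed and 0 to 3 with 1 library left out; the 0 pathway genes were 7 with 9 libraries and 0 to 10 with 1 library left out; the 3 transcripts were 0 with 9 libraries and 2 to 4 with 1 library left out. Fxr1 wake against sleep, the 0 genes were 2 with the trend removed and 0 to 1 with 1 library left out; the single pathway gene was 0 with 6 libraries, 3 with the trend removed and 0 to 3 with 1 library left out; the 0 transcripts were 0 to 1 with 1 library left out. The transcript counts stand without counts over all transcripts in the same settings, which are not given here. Over all genes, calls moved too. Wake against sleep they numbered 4156 of 14673, 2853 of 27915 with no filter and 1398 of 14617 with 9 libraries. They were 3458 with the trend removed and 1822 to 3631 with 1 library left out. Fxr1 wake against wake they numbered 60, 29 with a pseudocount of 0.1, 4 with no filter and 3366 with 9 libraries. They were 1 with the block, 45 with the trend removed and 2 to 3316 with 1 library left out. Fxr1 wake against sleep they numbered 1138, 183 with 6 libraries, 1874 with the trend removed and 248 to 1440 with 1 library left out.

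Whether replicate numbers pair the libraries was not settled. Deviations of same-numbered libraries correlated by -0.061 to 0.062 for wake and sleep and -0.069 to 0.167 for Fxr1 wake and wake. For Fxr1 wake and sleep the values were -0.253 to 0.091. Different-numbered libraries gave -0.076 to 0.084, -0.176 to 0.106 and -0.378 to 0.427 in the same order. Deviations of 3 libraries from their own mean depend on each other, so these values cannot decide whether libraries were paired. With the replicate block, wake against sleep gave 5 genes, 7 pathway genes (6 higher and 1 lower, without Rtn3, against 5 and 2) and 0 transcripts, Fxr1 wake against wake 0, 0 and 0, and Fxr1 wake against sleep 0, 0 and 0. With the replicate block and the trend removed together, wake against sleep gave 2 genes and 4 pathway genes, Fxr1 wake against wake 0 and 0, and Fxr1 wake against sleep 1 and 2. Over all genes, calls in the same order numbered 3116, 1 and 372 with the block, and 2239, 1 and 1200 with both. Depth limits Rtn4rl2 most, with an estimated 35 fragments in its lowest library.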
